A study of Mus musculus with 2 samples.

Results

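Migration 2 is 1 of the 9 clusters into which the authors divided the neutrophils of 4T1 liver metastases. Its members were taken from the cluster label that the authors gave each cell. They came to 1305 cells of the 10922 neutrophils and of the 44371 cells of all types in the study. Of these, 601 lay in the shZdhhc17 library, among 4328 neutrophils and 21511 cells, and 704 lay in the shSCR library, among 6594 neutrophils and 22860 cells. Stfa2l1, Saa3, Mmp19 and Cxcr2 were taken as its markers.

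4T1 is a mouse triple-negative mammary carcinoma line from BALB/c mice. The shZdhhc17 metastases came from 4T1 cells with a lentiviral pLKO.1 hairpin against Zdhhc17, which encodes a palmitoyltransferase, and the shSCR metastases from 4T1 cells with a non-targeting scrambled hairpin. The hairpin was in the injected cancer cells of both groups, selected with puromycin, while the neutrophils belonged to the untransduced host. In both groups female BALB/c mice aged 6 to 8 weeks received 250000 cells into the spleen, the spleen was removed within minutes, and metastases were dissected from the perfused liver 14 days later. Per the labels' protocols, 3 dissociations per group were pooled in equal cell numbers and loaded on a BD Rhapsody cartridge, a microwell system for single-cell RNA sequencing that aimed at 15000 cells. This makes 1 library per group. No test between groups was possible, the spread between mice is unknown, and the 95% intervals given here cover counting error only.

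Neutrophils mature in the bone marrow and leave it when signalling through the chemokine receptor CXCR2 outweighs retention through CXCR4. They then roll on selectins, adhere through integrins, crawl out of the vessel, and follow formyl peptides and chemokines through the tissue. Mature neutrophils carry little RNA, so that few molecules, counted by unique molecular identifiers (UMIs), are recovered from each cell. In the liver, these cells lodge in the sinusoids and at sites of injury or metastasis. The liver is also the main source of acute-phase proteins, to which the serum amyloids belong.

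The libraries held 172527305 UMIs (shZdhhc17) and 214842365 UMIs (shSCR), with medians over cells of all types of 6732 UMIs in shZdhhc17 and 7105 in shSCR. Over neutrophils the medians were 1418 in shZdhhc17 and 2464 in shSCR. Among all cells, 609 barcodes occurred in both libraries, 31 of them among neutrophils, and no barcode was a Migration 2 cell in both. The level of Zdhhc17 in the injected cells and the expression of single genes in each library were not analysed here, so each gene value given for Migration 2 is over both libraries together.

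The genes that marked Migration 2 were a protease inhibitor, acute-phase and metabolic genes, and genes of rolling, chemotaxis and the cytoskeleton. The authors' deposited table lists the 20 genes with the highest marker score for each cluster. That score is the log2 fold change of the cluster against all other neutrophils, multiplied by a specificity built from the percent of cells with the gene above 0 inside and outside the cluster. These values chose the markers and served to name the cluster, so they are a description with no test. The 4 markers named at the start come from that same list of 20, in which Mmp19 and Cxcr2 stood at ranks 11 and 13 (the authors' deposited table), and their presence in it is no independent check of the label. Depth matters for such percents, and the median of Migration 2 cells (1494 UMIs in shZdhhc17, 2192.5 in shSCR) lay near that of all other neutrophils together (1384 in shZdhhc17, 2595 in shSCR). Their means did not, at 1714 UMIs for Migration 2 and 4319 for the other neutrophils in shZdhhc17, and 2504 for Migration 2 and 6117 for the other neutrophils in shSCR. The part of depth in the percents was not tested.

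**Figure D1:**
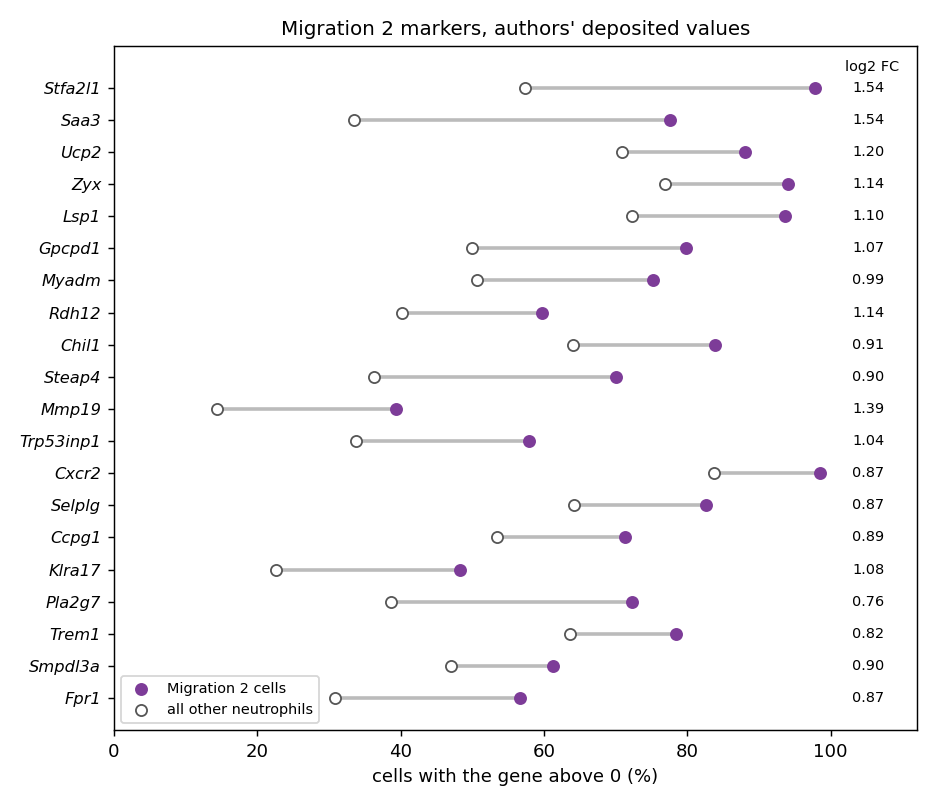
Percent of cells with each of the 20 Migration 2 markers above 0, in Migration 2 cells (filled) and in all other neutrophils (open), from the authors' deposited table, in the order of the authors' rank, with the log2 fold change at the right. Cxcr2 was high in both sets (98.5% and 83.8%), whereas Mmp19 was low in both (39.4% and 14.4%).

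Stfa2l1 (GRCm38 chr16:36156811-36161953, plus strand, protein-coding) ranked first. It belongs to the stefin A family, small intracellular inhibitors of cysteine proteases such as the cathepsins, which is expanded in the mouse. In the authors' deposited table it was above 0 in 97.85% of Migration 2 cells and 57.35% of the other neutrophils, with a log2 fold change of 1.54. Its family stands in a cluster of related copies on chromosome 16, and their likeness bears on how far its reads can be told from those of its neighbours. Of 11 family genes in the neutrophil gene table, 10 were matched to GENCODE transcripts of GRCm38. Stfa2 was the closest to Stfa2l1, with 95.7% identity over 373 aligned bases. Both coding sequences had 309 bases, of which 11 differed (96.4% identity), and the longest identical stretch ran for 97 bases. The other 8 copies were 75.4% to 82.2% identical to Stfa2l1. The last 150 coding bases before the stop codon of Stfa2l1 (spliced, within GRCm38 chr16:36160021-36161869, plus strand) and of Stfa2 (spliced, within chr16:36404030-36405156, minus strand) show how few letters separate them, with the 4 differing bases in capitals.
Stfa2l1: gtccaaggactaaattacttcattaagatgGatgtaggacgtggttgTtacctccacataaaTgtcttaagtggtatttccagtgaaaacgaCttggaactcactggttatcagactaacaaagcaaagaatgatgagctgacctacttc
Stfa2: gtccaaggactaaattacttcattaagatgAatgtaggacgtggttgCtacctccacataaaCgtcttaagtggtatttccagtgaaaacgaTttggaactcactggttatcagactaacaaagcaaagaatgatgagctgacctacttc

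Of the 370 windows of 50 bases in the Stfa2l1 transcript, 62 (16.8%) occurred letter for letter in another transcript of the family. Stfa2, Stfa3, Cstdc4, Cstdc5 and Cstdc6 were markers of a different cluster, ECM Remodeling. In the authors' deposited table, Stfa2 was above 0 in 99.7% of ECM Remodeling cells and 42.9% of the other neutrophils, with a log2 fold change of 2.64. How the counting pipeline treated reads shared by these copies is not given in the sources used here, so the split between Stfa2l1 and Stfa2 is uncertain. Csta1, Csta2, Csta3 and Stfa1 were markers of no cluster.

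Saa3 (chr7:46711998-46715700, minus strand, protein-coding) ranked second. It encodes a serum amyloid A protein of the acute-phase response that, in the mouse, is made largely outside hepatocytes, by macrophages and fat cells among others. The authors' deposited table gives it above 0 in 77.6% of Migration 2 cells against 33.5% of the other neutrophils, a difference of 44.0 percentage points, the largest of the 20, and a log2 fold change of 1.54. Steap4, a metalloreductase induced by inflammation, was above 0 in 70.0% of Migration 2 cells and 36.2% of the other neutrophils in the authors' deposited table. Of 13 acute-phase genes in a list, 11 were in the gene table, and 3 were among the markers of any cluster. Over the whole gene table, 180 of 21544 genes (0.835%) were markers of any cluster and 20 (0.0928%) of Migration 2. Saa3 and Steap4 were the 2 in Migration 2, while Lcn2, which encodes the siderophore-binding protein lipocalin 2, was a marker of NETosis 1. Saa1, Hp, Orm1, Orm2, Lrg1, Il1r2, Cd14 and Ptx3 were in the gene table and marked no cluster, and Saa2 and Crp were not in it.

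Because Saa3, Steap4 and Stfa2l1 stood together as markers, the 250 bases before their starts were read from RefSeq promoters of GRCm38.p6. Promoters were found for 14 of the 20 markers, all but Lsp1, Gpcpd1, Mmp19, Trp53inp1, Selplg and Smpdl3a. The promoters of the first 2 markers are shown, for Stfa2l1 at chr16:36156561-36156810 (plus strand) and for Saa3 at chr7:46715677-46715926 (minus strand), with matches to TTNNGNAA on either strand in capitals, a loose form of the site of C/EBP factors, which act in granulocyte differentiation and in the acute phase.
Stfa2l1: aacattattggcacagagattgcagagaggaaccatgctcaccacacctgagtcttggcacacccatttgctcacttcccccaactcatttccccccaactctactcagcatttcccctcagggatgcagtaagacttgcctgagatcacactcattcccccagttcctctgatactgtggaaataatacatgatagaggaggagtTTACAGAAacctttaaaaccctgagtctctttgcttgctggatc
Saa3: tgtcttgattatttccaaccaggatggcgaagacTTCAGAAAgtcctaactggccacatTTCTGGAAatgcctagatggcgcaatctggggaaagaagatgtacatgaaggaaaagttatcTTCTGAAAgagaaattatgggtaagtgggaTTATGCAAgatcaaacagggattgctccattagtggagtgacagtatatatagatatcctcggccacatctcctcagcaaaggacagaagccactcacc

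Saa3 held 4 such matches, between 216 and 92 bases before the start, and Stfa2l1 held 1, from 44 to 37 bases before it. The letters occurred in 9 of the 14 marker promoters (64.3%), against 36.9% of all 27025 mouse promoters of the same length. The 9 were those of Stfa2l1, Saa3, Myadm, Rdh12, Chil1, Steap4, Klra17, Trem1 and Fpr1. The median GC content was 50.6% over the 14 and 52.0% over all promoters. TTCNNNGAA, a STAT-like site, was in 3 of 14 (21.4%) against 7.18% of all, and an NF-kB-like site (GGG, any 5 bases, CC) was in 4 of 14 (28.6%) against 45.4%. TGANTCA, an AP-1-like site, was in 1 of 14 (7.14%) against 6.87%, and GAGGAAGT, a PU.1-like site, was in 0 of 14 against 2.44%. With only 14 marker promoters these percents are coarse, no interval was computed, and their difference from all promoters was not tested. The comparison was with all mouse promoters, not with those of neutrophil genes or of the markers of other clusters. It therefore shows nothing particular to Migration 2. A match describes the letters in this window and was not tested for factor binding.

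Of the receptors among the markers, Cxcr2 and Fpr1 guide neutrophils along chemical gradients. CXCR2 binds the chemokines CXCL1 and CXCL2 and is the main receptor by which neutrophils leave the marrow. Cxcr2 (chr1:74153989-74161246, plus strand, protein-coding) was nearly general. The authors' deposited table gives it above 0 in 98.5% of Migration 2 cells and 83.8% of the other neutrophils, which was the smallest ratio of the 20 (1.18), with a log2 fold change of 0.87. Fpr1, the receptor for formyl peptides released by bacteria and damaged mitochondria, was above 0 in 56.7% of Migration 2 cells and 30.8% of the other neutrophils in the authors' deposited table. Trem1, an activating receptor that amplifies inflammatory signals, was above 0 in 78.5% of Migration 2 cells and 63.6% of the others, per the authors' deposited table. Klra17, an inhibitory receptor of the Ly49 family, was above 0 in 48.3% of Migration 2 cells and 22.6% of the others in the authors' deposited table, and its family holds close copies that can share reads.

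Adhesion, matrix and cytoskeletal genes formed the next group. Selplg encodes PSGL-1, the ligand through which leukocytes roll on selectins, and the authors' deposited table gives it above 0 in 82.6% of Migration 2 cells and 64.2% of the others. Mmp19 (chr10:128790910-128800824, plus strand, protein-coding), a matrix metalloproteinase, had the largest ratio of the 20. It was above 0 in 39.4% of Migration 2 cells and 14.4% of the others, a ratio of 2.73, with a log2 fold change of 1.39 in the authors' deposited table. Most Migration 2 cells thus had no Mmp19 molecule counted. Lsp1, an F-actin-binding protein of leukocytes, was above 0 in 93.6% of Migration 2 cells and 72.2% of the others in the authors' deposited table. Zyx, which encodes the focal adhesion protein zyxin, was above 0 in 94.0% of Migration 2 cells and 76.9% of the others, again in the authors' deposited table. Myadm, a membrane protein of myeloid cells, was above 0 in 75.2% of Migration 2 cells and 50.7% of the others (authors' deposited table).

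The remaining markers were enzymes and stress-linked genes. Ucp2, a carrier of the inner mitochondrial membrane, followed Stfa2l1 and Saa3 in marker score in the authors' deposited table, with 88.1% of Migration 2 cells and 70.9% of the others above 0 and a log2 fold change of 1.20. Gpcpd1, a glycerophosphocholine phosphodiesterase, was above 0 in 79.8% of Migration 2 cells and 50.0% of the others, from the authors' deposited table. Pla2g7, whose product breaks down platelet-activating factor, was above 0 in 72.3% of Migration 2 cells and 38.7% of the others in the authors' deposited table. For 3 further enzymes and enzyme-like proteins the authors' deposited table gives gaps of 14.1 to 19.7 points, with 59.7% of Migration 2 cells and 40.2% of the others for the retinol dehydrogenase gene Rdh12, 83.8% of Migration 2 cells and 64.1% of the others for the chitinase-like gene Chil1, and 61.2% of Migration 2 cells and 47.1% of the others for the phosphodiesterase gene Smpdl3a. Trp53inp1, a p53-induced gene linked to autophagy, was above 0 in 57.9% of Migration 2 cells and 33.8% of the others (authors' deposited table). Ccpg1, a receptor for autophagy of the endoplasmic reticulum, was above 0 in 71.3% of Migration 2 cells and 53.5% of the others, per the authors' deposited table.

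As a set, the 20 markers separated Migration 2 weakly from the other neutrophils. In the authors' deposited table their median log2 fold change was 1.02, the seventh of the 9 clusters in order, and 10 of 20 reached 1. The median of the differences in percent of cells was 22.8 points. Only Saa3, Mmp19 and Klra17 were above 0 in at least double the percent of other neutrophils, and 11 of the 20 were above 0 in at least 50% of the neutrophils outside the cluster, per the authors' deposited table. Migration 1 had the lowest median log2 fold change of the 9, at 0.72, with 5 of 20 markers at 1 or above and a median difference of 13.4 points, in the authors' deposited table. Of the 1000 genes flagged as most variable among neutrophils (4.64% of the gene table), 5 were Migration 2 markers (Stfa2l1, Saa3, Gpcpd1, Steap4 and Mmp19), and 5 were Migration 1 markers. In the other clusters the count ran from 0 of 20 for Early-Stage 2 to 20 of 20 for Hypoxia/Angiogenesis.

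The 180 entries of the authors' deposited table were 180 distinct genes, so no pair of clusters shared a marker. The lack of shared markers between the Migration clusters is therefore no measure of their difference. Percents of the Migration 2 markers in Migration 1 cells alone are not given there. The leading Migration 1 genes were Retnlg, which encodes a resistin-like protein of neutrophils, Wfdc17, a whey acidic protein family member, and the collagenase gene Mmp8. Retnlg was above 0 in 99.6% of Migration 1 cells and 58.9% of the other neutrophils, with a log2 fold change of 2.09, in the authors' deposited table. Of a list of 46 migration genes, all of them in the gene table, 13 were markers of any cluster, set against the 0.835% of all genes. Migration 2 held 5 of these, namely Cxcr2, Fpr1, Selplg, Mmp19 and Lsp1, and Migration 1 held 1, Mmp8. Among the other clusters, ECM Remodeling held Mmp9 and Mmp25, NETosis 1 held Ceacam1, and NETosis 2 held Cd177. The lists were chosen with earlier results of these data known and from genes that neutrophils are known to express, so nothing is read from these counts beyond the names, and they do not measure movement of the cells.

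Lists of other cell types were set beside the same 20 markers. Of 8 genes of mature neutrophils, Migration 2 held Cxcr2 and Migration 1 held Retnlg and Mmp8, while ECM Remodeling held 3 (S100a8, Ly6g and Mmp9) and Inflammation held Csf3r. None of the 7 precursor genes, such as the granule genes Mpo, Elane and Ltf, was a Migration 2 marker. No Migration 2 marker belonged to the lists for macrophages and monocytes (9 genes, 5 of them in the gene table), T and NK cells (5 genes), B cells (3 genes), 4T1 epithelium (3 genes) or erythroid cells (3 genes). No gene of these lists marked any neutrophil cluster, so their absence says nothing particular about Migration 2. The markers also compare neutrophils only with other neutrophils, so they cannot exclude admixed cells. The lists for hepatocytes, endothelium and fibroblasts had only 1 of 3 genes each in the gene table, so they check even less. The hepatocyte gene among these, Trf, was a Migration 1 marker. All 10922 cells of the neutrophil table were also annotated as neutrophils in the table of all cells. In the map of all cells, 98.5% of the 15 nearest neighbours of a Migration 2 cell were neutrophils, 1.54% had a doublet label and 0 were of another type. Doublet-labelled cells with mostly Migration 2 neighbours numbered 12 in shZdhhc17 and 8 in shSCR.

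The share of Migration 2 was compared between metastases of Zdhhc17-silenced and control cancer cells. Migration 2 made up 13.9% of the neutrophils in shZdhhc17 (601 of 4328, exact 95% interval 12.9% to 14.95%) and 10.7% in shSCR (704 of 6594, 9.94% to 11.4%). The ratio was 1.30 (1.17 to 1.44). By the same rule of separate exact intervals, 6 of the 9 clusters (66.7%) differed between the libraries in either direction, and 3 of the 9 (33.3%), Migration 2 with Inflammation and NETosis 2, were higher in shZdhhc17. A difference of this kind was therefore common among the clusters. Migration 2 held 6.01% of the neutrophil UMIs in shZdhhc17 and 4.66% in shSCR.

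With denominators that reach beyond the neutrophils the intervals overlapped. Over all cells of a library Migration 2 made up 2.79% in shZdhhc17 and 3.08% in shSCR, and over all cells other than cancer cells 4.42% in shZdhhc17 and 4.23% in shSCR. The shares of the 9 clusters add to a whole, so a lower share of other clusters raises that of Migration 2. Ratios to 1 cluster at a time do not depend on the remaining clusters. There were 1.92 Migration 2 cells per Migration 1 cell in shZdhhc17 and 0.910 in shSCR, a ratio of 2.11 (95% counting interval 1.78 to 2.50). Migration 1 itself made up 7.23% of neutrophils in shZdhhc17 and 11.7% in shSCR, so this ratio reflects both clusters. The widest gap was to NETosis 1, with 2.78 Migration 2 cells per cell in shZdhhc17 and 0.923 in shSCR, a ratio of 3.02 (2.50 to 3.63). Set against Hypoxia/Angiogenesis the ratio was 1.75 (1.52 to 2.02), and against Early-Stage 2, Early-Stage 1 and ECM Remodeling it was 1.30, 1.26 and 1.22, all with intervals above 1. Against NETosis 2 it was 0.971 (0.812 to 1.16). Against Inflammation the order turned, with 0.486 Migration 2 cells per cell in shZdhhc17 and 0.591 in shSCR, a ratio of 0.823 (0.719 to 0.942).

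**Figure D2:**
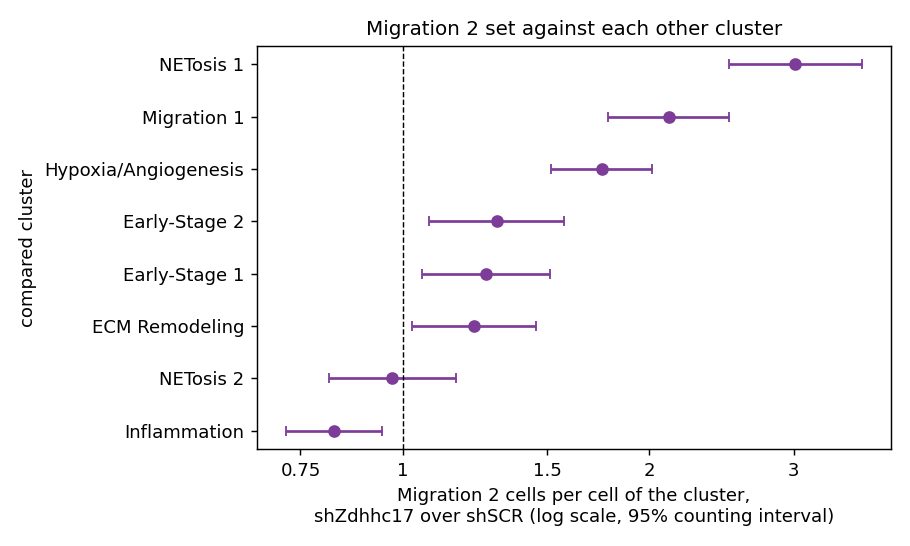
Migration 2 cells per cell of each other neutrophil cluster, as the ratio of shZdhhc17 over shSCR on a log scale, with 95% counting intervals as bars and the dashed line at 1. The ratio was highest against NETosis 1 (3.02) and Migration 1 (2.11), near 1 against NETosis 2 (0.971), and below 1 against Inflammation (0.823).

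The Migration 2 cells of the libraries differed in depth. In shZdhhc17 the median was 1494 UMIs (quartiles 1116 and 2095) and in shSCR 2192.5 UMIs (1567 and 3132), a ratio of 0.681. Detected genes had medians of 760 in shZdhhc17 and 926 in shSCR, a ratio of 0.821. All 9 clusters had fewer UMIs per cell in shZdhhc17. Migration 1 and Migration 2 had the 2 lowest ratios of the medians, 0.593 and 0.681, while those of the other 7 lay between 0.730 and 0.785. In shZdhhc17 the Migration 2 median was 1.01 times that of Migration 1, and in shSCR it was 0.882 times. Fewer UMIs per cell can come from less RNA in the cell or from lower recovery, which cannot be told apart with 1 library per group.

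**Figure D3:**
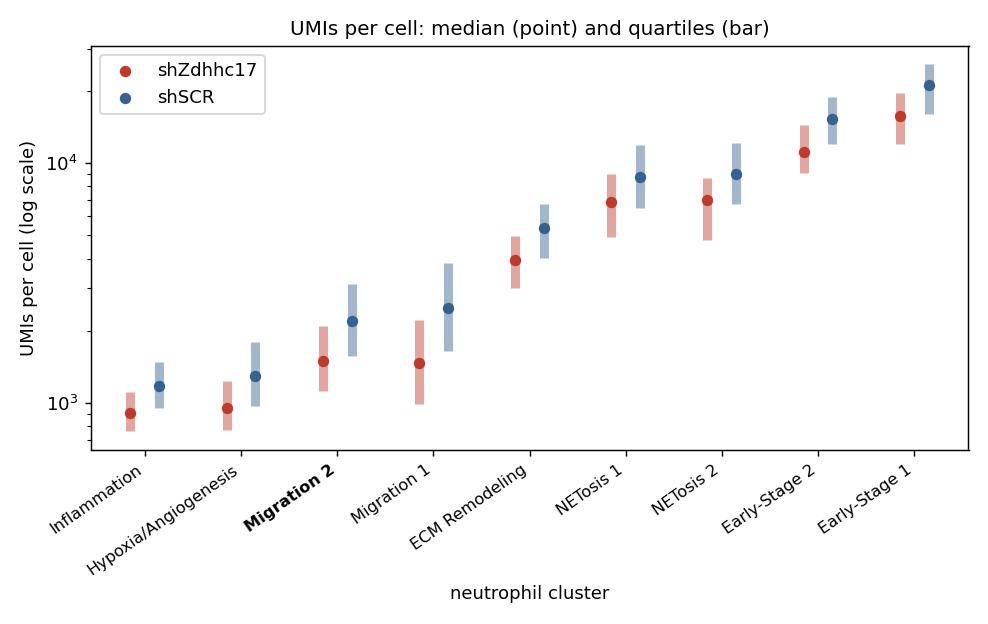
UMIs per cell on a log scale for the 9 neutrophil clusters, ordered by their median in shSCR, with medians as points and quartiles as bars, for shZdhhc17 (left of each pair) and shSCR. The medians of Migration 2 (bold) were 1494 UMIs for shZdhhc17 cells and 2192.5 UMIs for shSCR cells, and shZdhhc17 was the lower one in each of the 9 clusters.

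Mitochondrial molecules were also fewer. The median percent of UMIs from mitochondrial genes was 0.490% in shZdhhc17 Migration 2 cells and 1.35% in shSCR ones, and over summed UMIs it was 1.12% in shZdhhc17 and 1.91% in shSCR. In shZdhhc17, 28.3% of Migration 2 cells (170 cells, exact interval 24.7% to 32.1%) had no mitochondrial UMI, against 9.52% (67 cells, 7.45% to 11.9%) in shSCR. Shallower cells reach 0 more readily. After each cell was thinned to 1000 UMIs, which left out 108 shZdhhc17 cells and 44 shSCR cells, the shares were 20.8% in shZdhhc17 and 6.88% in shSCR. Thinning a cell can only raise its probability of having no mitochondrial UMI, so these shares are lower because of the cells left out. The shares of the kept cells before thinning are not given here. Before thinning, Migration 1 had like shares with no mitochondrial UMI, 27.5% in shZdhhc17 and 6.59% in shSCR. The shares were also higher in shZdhhc17 in Inflammation (58.0% against 37.7% in shSCR) and Hypoxia/Angiogenesis (54.1% against 31.4% in shSCR). In the remaining clusters they were at most 2.87%, and in NETosis 2 they were 0.280% in shZdhhc17 and 0.739% in shSCR, with overlapping intervals. The counts had been corrected for ambient RNA by the authors, and the part of that correction in these shares was not tested.

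The Migration 2 share varied with depth within each library. The neutrophils were divided into 10 classes by UMIs, with the same limits in both libraries. Migration 2 was most frequent at 1492 to 1996 UMIs in shZdhhc17, at 38.9% of the class, and at 1997 to 3104 UMIs in shSCR, at 29.0%. In 5 of the 10 classes, from 815 to 3104 UMIs, its share was higher in shZdhhc17 with separate intervals. At 1197 to 1491 UMIs, for example, it was 27.7% in shZdhhc17 and 10.6% in shSCR. In 2 deeper classes it was lower in shZdhhc17, with 10.4% against 20.1% in shSCR at 3108 to 5229 UMIs, and 0.546% in shZdhhc17 against 4.55% in shSCR at 5230 to 8418 UMIs. The intervals of the other 3 classes overlapped. Above 13965 UMIs there was no Migration 2 cell among 292 shZdhhc17 neutrophils (exact upper limit 1.26%) or 801 shSCR neutrophils (0.459%).

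**Figure D4:**
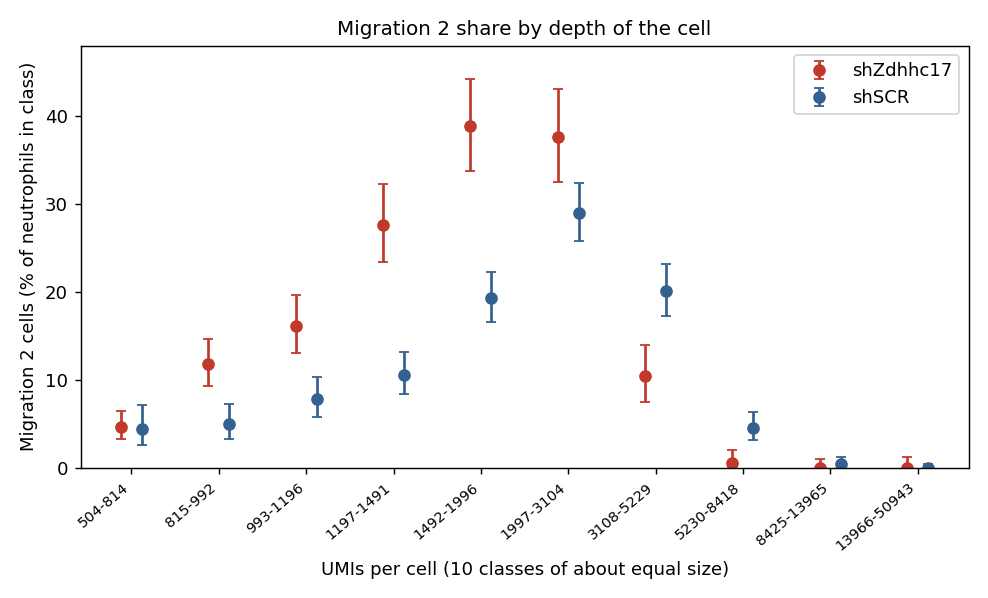
Share of Migration 2 among neutrophils in 10 classes of UMIs per cell, for shZdhhc17 (left of each pair) and shSCR, with exact 95% intervals. The peak lay at 1492 to 1996 UMIs in shZdhhc17 (38.9%) and at 1997 to 3104 UMIs in shSCR (29.0%), and the order of the libraries turned in the classes from 3108 to 8418 UMIs.

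Ranking the cells within their own library takes the limits from its own depth, so the ranks also depend on its cluster makeup. With the neutrophils of each library cut into 10 equal groups by UMIs, from shallow to deep, the Migration 2 share was higher in shZdhhc17 only in the sixth and the seventh group. These held 40.0% Migration 2 cells in shZdhhc17 against 28.4% in shSCR, and 33.3% in shZdhhc17 against 12.9% in shSCR. In the other 8 the intervals overlapped, and in 0 was the share lower. Within classes of common limits the gap in detected genes of Migration 2 cells was small, with medians of 707.5 genes in shZdhhc17 and 677 in shSCR at 1197 to 1491 UMIs, and 834 in shZdhhc17 and 798.5 in shSCR at 1492 to 1996 UMIs.

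Migration 2 lay beside Migration 1 and Inflammation in the authors' map of the neutrophils, a UMAP in which near cells have similar expression. Of the 15 nearest neighbours of a Migration 2 cell, 75.2% on average were Migration 2, 12.3% Migration 1, 6.86% Inflammation, 4.07% Hypoxia/Angiogenesis and 1.48% ECM Remodeling. None was an Early-Stage or NETosis 1 cell. Migration 1 had fewer neighbours of its own cluster, 67.9%, with 15.01% Migration 2, while in the other 7 clusters this share lay between 86.7% and 97.9%. The Migration clusters thus had the 2 lowest shares of own-cluster neighbours among the 9. Cells with at least 8 of 15 neighbours in their own cluster made up 84.7% of Migration 2 in shZdhhc17 (509 of 601) and 77.8% in shSCR (548 of 704), whereas for Migration 1 they made up 56.2% in shZdhhc17 and 70.4% in shSCR. Among the cells so defined, there were 2.89 Migration 2 cells per Migration 1 cell in shZdhhc17 and 1.01 in shSCR. Of the neighbours of a shZdhhc17 Migration 2 cell 51.8% came from shZdhhc17, against 40.6% for a shSCR Migration 2 cell. The gap was of like size in Migration 1 (39.7% for shZdhhc17 cells and 26.5% for shSCR cells), Hypoxia/Angiogenesis (41.1% for shZdhhc17 cells and 28.9% for shSCR cells) and Inflammation (56.9% for shZdhhc17 cells and 46.1% for shSCR cells). In the remaining clusters the gap was smaller. Among them it was widest in NETosis 2 (51.8% for shZdhhc17 cells and 43.9% for shSCR cells). The narrowest was in Early-Stage 2 (40.5% for shZdhhc17 cells and 38.8% for shSCR cells).

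The authors' high-resolution clustering divided Migration 2 further. Its cells fell into 42 of the 147 fine clusters of the neutrophils, and 10 fine clusters with at least 50 Migration 2 cells each held 900 of the 1305 (69.0%). In 5 of the 10, at least 90% of the neutrophils were Migration 2. The shZdhhc17 library supplied 46.1% of all Migration 2 cells (43.3% to 48.8%) and 39.6% of all neutrophils. In 3 fine clusters its part lay above 46.1%, with 72.0% in H.49 (60.4% to 81.8%), 69.5% in H.91 (56.1% to 80.8%) and 56.6% in H.12 (47.3% to 65.5%). In 2 it lay below, with 27.7% in H.65 (17.3% to 40.2%) and 30.5% in H.17 (20.8% to 41.6%). The intervals of the other 5 held 46.1%. The depth of these fine clusters differed as well. Over the Migration 2 cells of both libraries together, the median UMIs were 1542 in H.49, 1277 in H.91 and 1828 in H.12, against 2229 in H.65 and 1898 in H.17. Among the 5 whose intervals held 46.1%, the median ran from 1599 in H.10 to 2901.5 in H.6. In all 10, the shZdhhc17 cells had the lower median UMIs, so the pooled median of a fine cluster also depends on its library makeup. In shZdhhc17 alone the medians were 1484.5 in H.49, 1238 in H.91 and 1651 in H.12, against 1803 in H.65 and 1411 in H.17. In shSCR alone they were 1784 in H.49, 1310.5 in H.91 and 2190 in H.12, against 2309 in H.65 and 2376 in H.17. The part of depth in the makeup of the fine clusters was not tested.

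**Figure D5:**
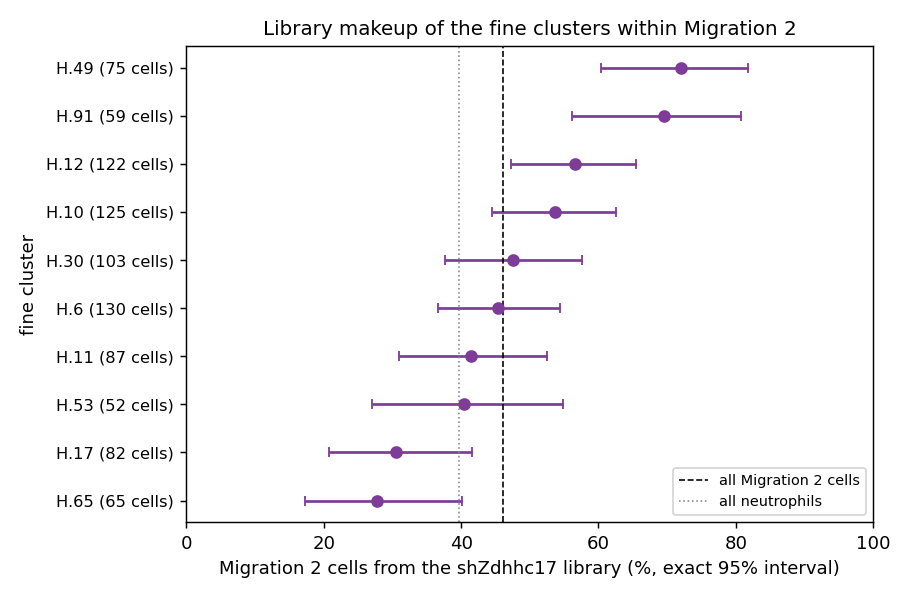
Percent of Migration 2 cells from the shZdhhc17 library in the 10 fine clusters with at least 50 Migration 2 cells, with exact 95% intervals, beside its percent over all Migration 2 cells (dashed, 46.1%) and over all neutrophils (dotted, 39.6%). The values ran from 27.7% in H.65 to 72.0% in H.49, and 5 of the 10 intervals held the dashed line.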

How the data were processed

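Liver metastases of 2 groups were measured by BD Rhapsody single-cell RNA sequencing, 1 pooled library each. Reads went through the BD Rhapsody pipeline and ambient RNA correction by the authors, per the file headers, before cells were clustered on the 1000 most variable genes. Gene symbols follow GRCm38, and the submitters' processing notes name Seurat 4.1.0. Not given in the sources used here are the tool for ambient correction and the pipeline version. The deposited cell tables hold counts per cell (UMIs and genes), the authors' percent of mitochondrial UMIs, and deposited UMAP coordinates (a score without unit). The deposited marker table gives log2 fold changes (Seurat, Wilcoxon method, depth-scaled values, pseudocount 1) the fraction of cells above 0, printed as percent, and marker scores.

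From these, shares with exact (Clopper-Pearson) 95% intervals, ratios with log-normal 95% counting intervals, medians, and 15 nearest UMAP neighbours were computed (Python 3.11.15, pandas 2.3.3, scipy 1.17.1, scikit-learn 1.9.0), after testing on simulated data. Higher or lower, of a share, means that the exact intervals are separate. Sequences were aligned with Biopython 1.88. All authors' doublet labels were kept as given and no caller was run. Mitochondrial UMIs were whole within 0.001 when rebuilt from the percent. All 20 Migration 2 markers, listed migration and acute-phase genes, leading Migration 1 markers and the stefin A family were named. Some members of the migration list are not reported here. The members and lists were chosen with earlier results of these data known. Alternatives were other denominators, UMI and mitochondrial filters, matching on 10 UMI classes, thinning, and, added after seeing the data, leaving out each other cluster, shared barcodes or cells with few own-cluster neighbours.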

Additional observations from a re-analysis of the deposited data

How the results depend on the processing

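Of 33 alternatives, 25 stayed within the 95% interval over cells of the reported value, 5 moved and 3 turned. The 25 overstate the checks made. Leaving out the top 5% of UMIs removed no Migration 1 or Migration 2 cell, so their ratio could not change. Another of the 25 was the mitochondrial gap in Migration 1 cells (20.9 points), which is another cluster and not another processing. Among the 25, the shZdhhc17 ratio of Migration 2 to Migration 1 median UMIs, 1.01, fell on the other side of 1 with means (0.980) and with at least 1000 UMIs (0.981), so it has no firm direction. The share ratio of 1.30 was 0.907 over all cells of the library and 1.05 over cells other than cancer cells, both with overlapping intervals. It was 1.49 without Inflammation and 1.46 matched on UMI classes. Leaving out each of the 8 other clusters gave 1.21 to 1.49, and 14 of 17 alternatives had a ratio above 1 with separate intervals (matching gives no exact interval). Without the barcodes found in both libraries the ratio was 1.32. The ratio of Migration 2 to Migration 1 cells, 2.11, was 2.88 among cells with mostly own-cluster neighbours. The UMI ratio of 0.681 turned to 1.28 when divided by the ratio over all other neutrophils (0.533), whose median also reflects their cluster makeup. The gene ratio of 0.821 turned to 1.03 when matched on UMI classes. The gap in cells with no mitochondrial UMI, 18.8 points, was 14.0 points after cells below 1000 UMIs were left out and the rest thinned to 1000 UMIs. The parts of these 2 steps were not separated. For the other changes the cause was not tested. No paired analysis was possible because each group is 1 library. No replicate could be left out for the same reason, so differences between mice, libraries and groups cannot be told apart.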

Other observations

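Migration 2 cells near the limit of their cluster differed little in depth from the rest of it. Those with fewer than 8 of 15 neighbours in Migration 2 had median UMIs of 1419.5 in shZdhhc17 (92 cells) and 2104 in shSCR (156 cells), and the others 1520 in shZdhhc17 (509 cells) and 2204 in shSCR (548 cells). The doublet-labelled cells with mostly Migration 2 neighbours had median UMIs of 2072 in shZdhhc17 (12 cells) and 4256.5 in shSCR (8 cells).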
